A study of Mus musculus with 6 samples.

Results

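Regulatory T cells were followed here through 7 genes, Foxp3, Il2ra, Ikzf2, Tnfrsf18, Tnfrsf4, Icos and Il10, each taken by its symbol in the deposited tables and set against Cd3e, a chain of the T cell receptor complex, in the same library. Each symbol had a single Ensembl identifier, and all 7 were among the 17423 genes tested, of 55536 in the table. The study sequenced RNA from whole tumours of 6 male C3H mice, 6 to 8 weeks old when 1000000 cells of HCA-1, a mouse hepatocellular carcinoma line, were placed under the liver capsule. The 3 Control mice (replicates 3, 4 and 5) are labelled untreated, and the 3 TSDP mice (replicates 1, 2 and 5) were given nanoparticles that hold DNIC, which releases nitric oxide, together with the kinase inhibitor sorafenib, in 6 intravenous doses from day 10 to day 23. Tumours of both groups were removed on day 24. Whether Control mice received an empty carrier is not in the labels, no arm had either drug alone, and a single cell line was used. Total counts were 32130808 to 38953397 reads per library.

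Regulatory T cells are CD4 T cells that restrain other immune cells, and in many tumours they gather and dampen the response to the cancer. Their identity rests on the transcription factor FOXP3. They take up interleukin 2 through the high-affinity chain CD25 (Il2ra), carry the co-stimulatory receptors GITR (Tnfrsf18), OX40 (Tnfrsf4) and ICOS, often hold the Ikaros-family factor Helios (Ikzf2), and can release interleukin 10. Most of these genes do not belong to them alone: activated T cells share most of them, macrophages and B cells can make interleukin 10, and Helios occurs outside the T cell lineage.

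Foxp3, Icos and Tnfrsf4 were higher in every TSDP tumour than in any Control tumour, while Il2ra, Tnfrsf18 and Il10 overlapped between the groups and Ikzf2 had the opposite sign. None of the 7 passed the test across all genes. By edgeR's quasi-likelihood test with Benjamini-Hochberg adjustment over all genes at 0.05, 0 members were called higher and 0 lower, as were 0% of all genes in each direction. At an unadjusted p under 0.05, 1 member was higher (Foxp3) and 0 lower, against 8.6% and 4.75% of all genes. Of the 7, 6 had positive log2 fold changes (TSDP over Control) with a median of 0.66, where 47.3% of all tested genes were positive and their median was -0.02. In CPM (reads of a gene per 1000000 reads of the library), 3 of 7 members had groups without overlap and higher in TSDP and 0 lower, against 13% and 8.76% of all tested genes. In whole tumours, a smaller number of cells of a type and less RNA per cell cannot be told apart.

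**Figure D1:**
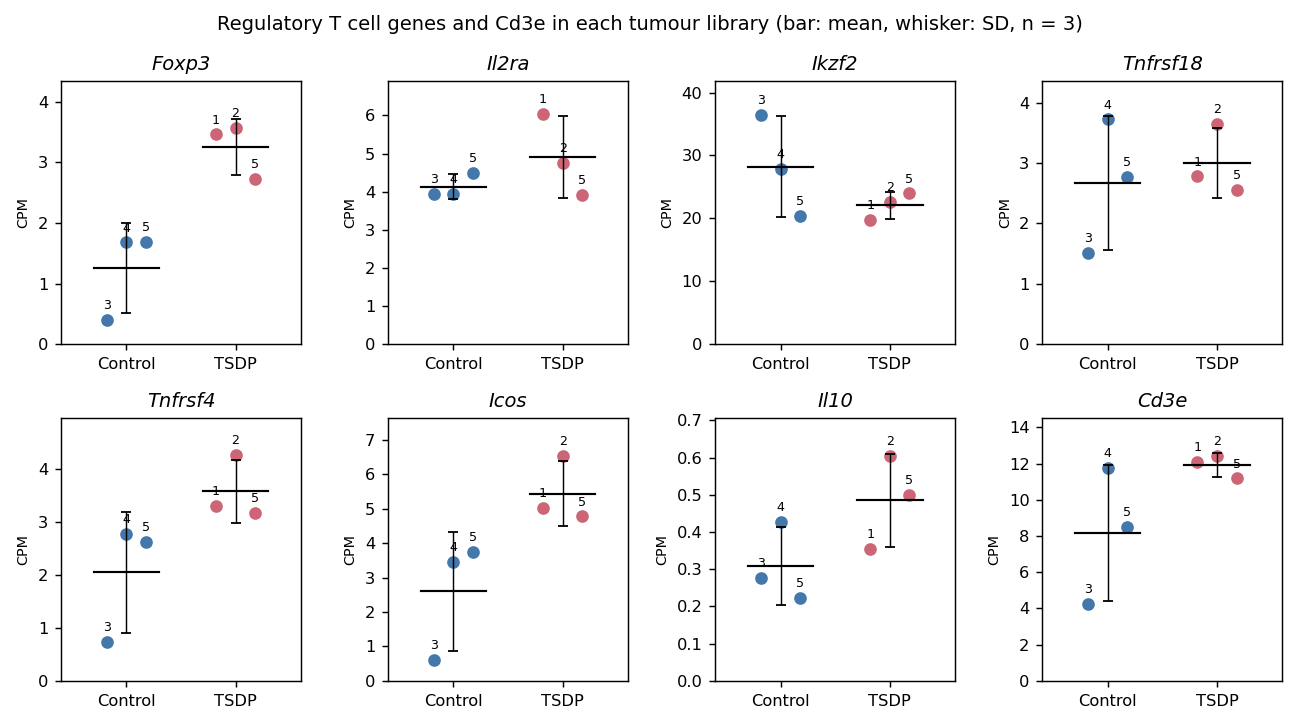
CPM (vertical axes, from 0) of the 7 genes and Cd3e in the 3 Control and 3 TSDP libraries, labelled by replicate number, with the group mean (bar) and SD (whisker). The TSDP points of Foxp3, Tnfrsf4 and Icos lie above all Control points, and Control 3 is the lowest library for these 3 genes, for Tnfrsf18 and for Cd3e.

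Foxp3 (ENSMUSG00000039521), the factor that defines the lineage, was counted at 13, 55 and 68 reads in Control 3, 4 and 5 against 127, 124 and 98 reads in TSDP 1, 2 and 5. This is 0.399, 1.68 and 1.68 CPM against 3.46, 3.56 and 2.72 CPM. The lowest TSDP library thus stood above the highest Control library, and Control 3 stood apart from the other 2 Control libraries; the 13 reads of Control 3 have an exact Poisson 95% interval of 6.92 to 22.2, which covers counting error only. The means were 1.25 CPM ± 0.739 (SD, n = 3) for Control and 3.25 CPM ± 0.460 (SD, n = 3) for TSDP. The log2 fold change was 1.37 ± 0.53 (SE, adjusted p = 0.365 by edgeR, 0.0392 unadjusted), so the difference did not pass. DESeq2, run as an alternative, called 0 of the 7 members, against 2.98% of the genes it tested higher and 0.397% lower. Without Control 3 the log2 fold change of Foxp3 was 0.95 (edgeR adjusted p = 0.524).

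Icos, the co-stimulatory receptor that sustains effector regulatory T cells, was counted at 0.615, 3.45 and 3.73 CPM in Control 3, 4 and 5 against 5.01, 6.53 and 4.77 CPM in TSDP 1, 2 and 5. Again all TSDP libraries were higher than all Control libraries, with Control 3 far below the rest. Its log2 fold change was 1.06 ± 0.61 (SE, adjusted p = 0.478 by edgeR). Tnfrsf4, which encodes OX40, a receptor of the tumour necrosis factor family found on activated T cells, had 0.737, 2.78 and 2.62 CPM in Control 3, 4 and 5 against 3.30, 4.25 and 3.16 CPM in TSDP 1, 2 and 5. The gap between the closest libraries of the groups was small, from 2.78 CPM in Control 4 to 3.16 CPM in TSDP 5. Its log2 fold change was 0.80 ± 0.49 (SE, adjusted p = 0.502 by edgeR). Without Control 3 the values were 0.60 for Icos and 0.40 for Tnfrsf4.

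Tnfrsf18, which encodes GITR and lies next to Tnfrsf4 with starts 12627 bases apart in RefSeq (GRCm38.p6), overlapped between the groups where its neighbour did not. Its levels were 1.51, 3.72 and 2.77 CPM in Control 3, 4 and 5 against 2.78, 3.65 and 2.55 CPM in TSDP 1, 2 and 5. Control 4 was the highest library of all. The log2 fold change was 0.17 ± 0.37 (SE, adjusted p = 0.861 by edgeR), and it was -0.12 without Control 3. Whether the 2 neighbours differ in response was not tested. A gene on the other strand that overlaps Tnfrsf18, Gm16008, had a mean of 1.68 CPM over Control and of 1.22 CPM over TSDP libraries, and without a stated strand setting the reads of this pair cannot be told apart.

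Il2ra, the interleukin 2 receptor chain, was nearly level at 3.93, 3.94 and 4.50 CPM in Control 3, 4 and 5 against 6.05, 4.74 and 3.91 CPM in TSDP 1, 2 and 5. TSDP 1 was the highest library and TSDP 5 the lowest, so the groups overlapped. Control 3, the lowest library for Foxp3, Icos, Tnfrsf4, Tnfrsf18 and Cd3e, was not the lowest for Il2ra. The log2 fold change was 0.25 ± 0.23 (SE, adjusted p = 0.641 by edgeR). Il10, the suppressive cytokine, was close to the limit of counting, with 9, 14 and 9 reads in Control 3, 4 and 5 against 13, 21 and 18 reads in TSDP 1, 2 and 5. The exact Poisson 95% interval of the lowest count, 9, was 4.12 to 17.1 and that of the highest, 21, was 13.0 to 32.1, so most libraries could not be ranked at this depth. The log2 fold change of Il10 was 0.66 ± 0.38 (SE, adjusted p = 0.478 by edgeR).

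Ikzf2, which encodes Helios, was the member with most reads and the 1 with a negative fold change. It had 36.5, 27.8 and 20.3 CPM in Control 3, 4 and 5 against 19.7, 22.6 and 24.0 CPM in TSDP 1, 2 and 5. The highest value came from Control 3, the library with the lowest Foxp3 and Cd3e, and the groups overlapped through Control 5. The log2 fold change was -0.35 ± 0.22 (SE, adjusted p = 0.513 by edgeR), and -0.12 without Control 3. Raw Ikzf2 reads in Control 3 numbered 1188 where Cd3e had 139.

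Per kilobase of annotated exon (GENCODE M21, GRCm38), the levels could be ordered between genes. In Control the mean was 2.43 CPM per kilobase for Ikzf2, 1.75 for Tnfrsf18, 1.5 for Tnfrsf4, 0.758 for Icos, 0.722 for Il2ra, 0.274 for Foxp3 and 0.236 for Il10, with Cd3e at 2.003. Of the neighbours in this order, Il2ra and Foxp3 had no overlap between libraries, and the other pairs overlapped. In TSDP the order was Tnfrsf4 at 2.62 CPM per kilobase, Tnfrsf18 at 1.96, Ikzf2 at 1.90, Icos at 1.59, Il2ra at 0.858, Foxp3 at 0.710 and Il10 at 0.371, with Cd3e at 2.92. There the libraries of Icos and Il2ra and those of Foxp3 and Il10 did not overlap, and the other neighbouring pairs did. Compared within single libraries, some overlapping pairs kept the same order. In every Control library Tnfrsf4 was above Icos. In every TSDP library Tnfrsf4 was above Tnfrsf18, Ikzf2 above Icos and Il2ra above Foxp3. The remaining overlapping pairs changed order between libraries. These lengths count every annotated exon, and Foxp3 shares 853 exon bases with Flicr on its own strand and 590 with Ccdc22 on the other strand, so its level per kilobase is uncertain. Flicr lay between 0.109 and 0.546 CPM in the 6 libraries, and Ccdc22 is listed at 0 in all of them.

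The stretch of 250 bases before the gene start is shown for Foxp3 (the second of 2 starts that RefSeq lists) and Tnfrsf4, whose groups did not overlap, and for Il2ra, whose groups did. RefSeq's table (GRCm38.p6) held 4 of the 7 members, Foxp3, Il2ra, Tnfrsf18 and Tnfrsf4. All 3 lie on the plus strand, at chrX:7580233-7580482, chr4:156013445-156013694 and chr2:11642542-11642791. Capitals mark matches on either strand to the letters TTTCC, the core that NFAT factors bind, or TTCNNNGAA, the spaced half-sites of STAT factors. A search for the forkhead letters TGTTTAC gave no match in these windows.
Foxp3: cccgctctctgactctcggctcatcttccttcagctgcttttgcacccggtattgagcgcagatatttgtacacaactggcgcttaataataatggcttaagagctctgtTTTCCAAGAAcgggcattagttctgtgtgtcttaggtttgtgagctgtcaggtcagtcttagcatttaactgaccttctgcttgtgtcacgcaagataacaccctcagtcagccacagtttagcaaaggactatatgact
Tnfrsf4: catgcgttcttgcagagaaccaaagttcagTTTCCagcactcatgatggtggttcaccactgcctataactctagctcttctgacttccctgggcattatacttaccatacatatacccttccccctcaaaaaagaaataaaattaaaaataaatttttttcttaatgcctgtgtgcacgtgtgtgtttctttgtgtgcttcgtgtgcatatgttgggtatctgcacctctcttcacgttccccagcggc
Il2ra: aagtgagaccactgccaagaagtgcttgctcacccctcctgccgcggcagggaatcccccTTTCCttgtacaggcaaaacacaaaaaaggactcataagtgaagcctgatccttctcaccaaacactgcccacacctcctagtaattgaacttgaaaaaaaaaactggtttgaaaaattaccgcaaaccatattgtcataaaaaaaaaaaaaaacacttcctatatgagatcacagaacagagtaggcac
In the Foxp3 stretch 1 NFAT and 1 STAT match overlap each other. The Tnfrsf4 and Il2ra stretches each hold 1 NFAT match and no other, and that of Tnfrsf18 (not printed) 2 NFAT and 1 STAT matches. Among all 32851 stretches of this length in the table, 55.6% hold the NFAT letters, 7.02% the STAT letters and 3.17% the forkhead letters. A match describes letters and not binding.

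Setting the members against Cd3e asks whether they differed beyond the number of T cell reads. Cd3e was counted at 139, 385 and 344 reads in Control 3, 4 and 5 against 444, 433 and 403 reads in TSDP 1, 2 and 5, or 8.17 CPM ± 3.75 and 11.9 CPM ± 0.651 (SD, n = 3 each). Control 4 with 11.7 CPM lay within the TSDP range of 11.2 to 12.4 CPM, so the groups overlapped (log2 fold change 0.54 ± 0.35, SE, edgeR adjusted p = 0.522). Relative to Cd3e, 1 of 7 members was without overlap and higher in TSDP and 2 were lower, against 4.86% and 17.3% of all tested genes. These are Foxp3, and Ikzf2 with Tnfrsf18.

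Foxp3 stood at 9.35, 14.3 and 19.8 reads per 100 Cd3e reads in Control 3, 4 and 5 against 28.6, 28.6 and 24.3 in TSDP 1, 2 and 5. The TSDP libraries lay close together and above all Control libraries. The log2 ratio was higher by 0.97 ± 0.32 (SE, n = 3 each) in TSDP, and an exact permutation test (two-sided) gave p = 0.1, the lowest value that 3 against 3 libraries allow. Without Control 3 the difference was 0.69. With the Cd3e count in place of the library size, edgeR gave Foxp3 a log2 fold change of 0.89 ± 0.59 (SE, adjusted p = 0.276). That fit called 0 of the 7 members in either direction, against 3.46% of all genes higher and 1.06% lower.

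Tnfrsf18 had 35.3, 31.7 and 32.6 reads per 100 Cd3e reads in Control 3, 4 and 5 against 23.0, 29.3 and 22.8 in TSDP 1, 2 and 5. Here Control 3 did not stand apart, and every TSDP library was below every Control library. The log2 ratio differed by -0.41 ± 0.13 (SE, n = 3 each, exact permutation p = 0.1). In the edgeR fit scaled by Cd3e its log2 fold change was -0.40 ± 0.57 (SE, adjusted p = 0.562). The separation did not extend to every denominator: against the summed Cd3 genes the groups were again apart (-0.48 ± 0.14), but they overlapped against Cd4 (-1.24 ± 0.53), Cd8a (-0.28 ± 0.14) and Ptprc (-0.09 ± 0.33; SE, n = 3 each, exact permutation p = 0.1, 0.2, 0.2 and 0.9 in this order). Ikzf2 had 855, 237 and 239 reads per 100 Cd3e reads in Control 3, 4 and 5 against 163, 182 and 214 in TSDP 1, 2 and 5. The groups did not overlap, but the size of the difference, -0.98 ± 0.63 on the log2 scale (SE, n = 3 each, exact permutation p = 0.1), rested on Control 3 and was -0.36 without it.

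Tnfrsf4 and Icos, separate between the groups in CPM, overlapped relative to Cd3e. Tnfrsf4 had 17.3, 23.6 and 30.8 reads per 100 Cd3e reads in Control 3, 4 and 5 against 27.3, 34.2 and 28.3 in TSDP 1, 2 and 5 (exact permutation p = 0.3). Icos had 14.4, 29.4 and 43.9 in Control 3, 4 and 5 against 41.4, 52.4 and 42.7 in TSDP 1, 2 and 5 (exact permutation p = 0.3). For both genes Control 5 lay within the TSDP range, and Control 3 and Control 4 lay below it. Leaving out Control 5 therefore parts the groups by construction. In that setting 5.65% of all tested genes were higher in TSDP without overlap. Il2ra had 92.1, 33.5 and 52.9 reads per 100 Cd3e reads in Control 3, 4 and 5 against 50.0, 38.1 and 35.0 in TSDP 1, 2 and 5 (exact permutation p = 0.5). Il10 averaged 4.24 ± 1.999 and 4.08 ± 1.02 reads per 100 Cd3e reads (SD, n = 3 each, exact permutation p = 1). In all, 7 ratios to Cd3e were compared.

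**Figure D2:**
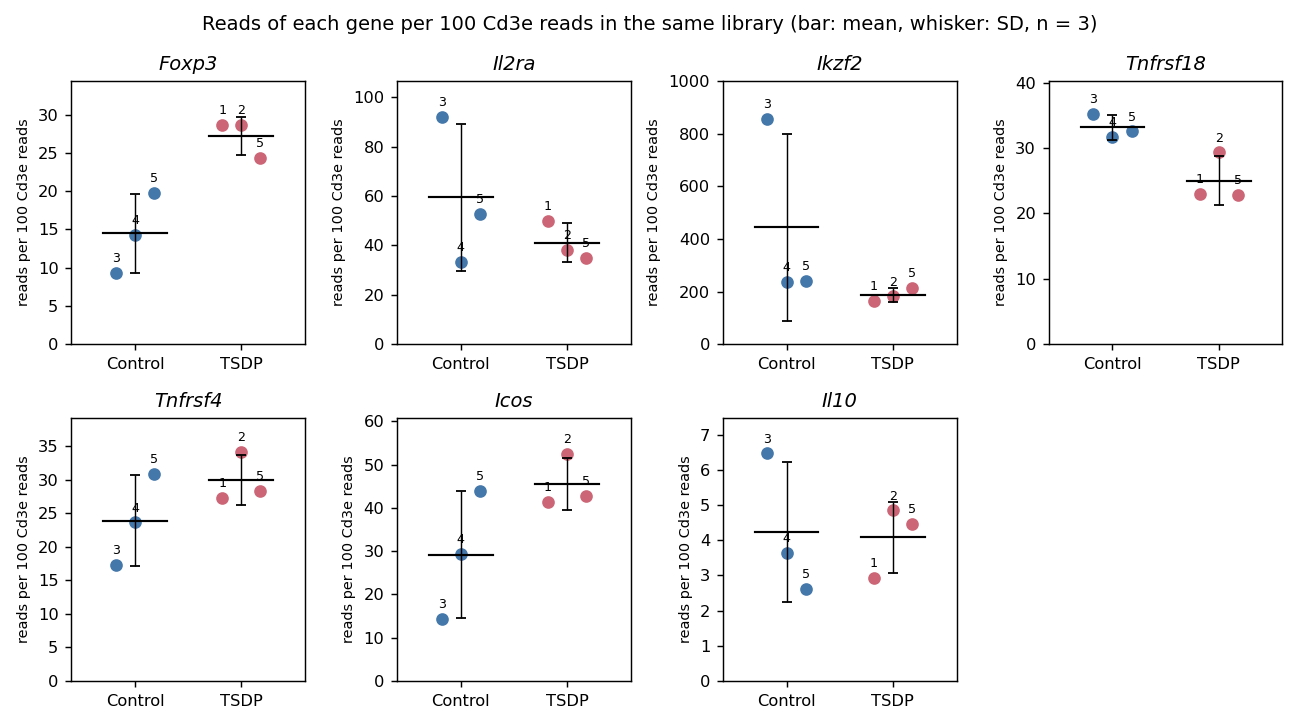
Reads of each member per 100 Cd3e reads in the same library (vertical axes, from 0), by group and labelled by replicate number, with mean (bar) and SD (whisker). Foxp3 is higher in all 3 TSDP libraries, Tnfrsf18 and Ikzf2 are lower in all 3, and the Ikzf2 value of Control 3, 855, is far above the others.

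The Foxp3 result depended on which T cell gene it was set against. Against the summed reads of Cd3d, Cd3e and Cd3g the log2 ratio was higher by 0.91 ± 0.24 in TSDP, against Ptprc, the leukocyte marker CD45, by 1.30 ± 0.66, and against Cd8a, the marker of cytotoxic T cells, by 1.10 ± 0.32 (SE, n = 3 each, exact permutation p = 0.1 for each). In each of these cases the groups did not overlap. Foxp3 had 5.37, 9.06 and 10.6 reads per 100 Cd8a reads in Control 3, 4 and 5 against 19.1, 18.2 and 14.8 in TSDP 1, 2 and 5, where 4.98% of all tested genes were likewise higher without overlap. Against Cd4, the co-receptor of the lineage that holds regulatory T cells and of some dendritic cells, the groups overlapped. Foxp3 there had 30.2, 32.4 and 23.4 reads per 100 Cd4 reads in Control 3, 4 and 5 against 38.1, 38.0 and 21.4 in TSDP 1, 2 and 5, a log2 difference of 0.14 ± 0.31 (SE, n = 3 each, exact permutation p = 0.6). Cd4 itself was counted at 1.32, 5.19 and 7.17 CPM in Control 3, 4 and 5 against 9.07, 9.37 and 12.7 CPM in TSDP 1, 2 and 5, without overlap (edgeR adjusted p = 0.417).

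**Figure D3:**
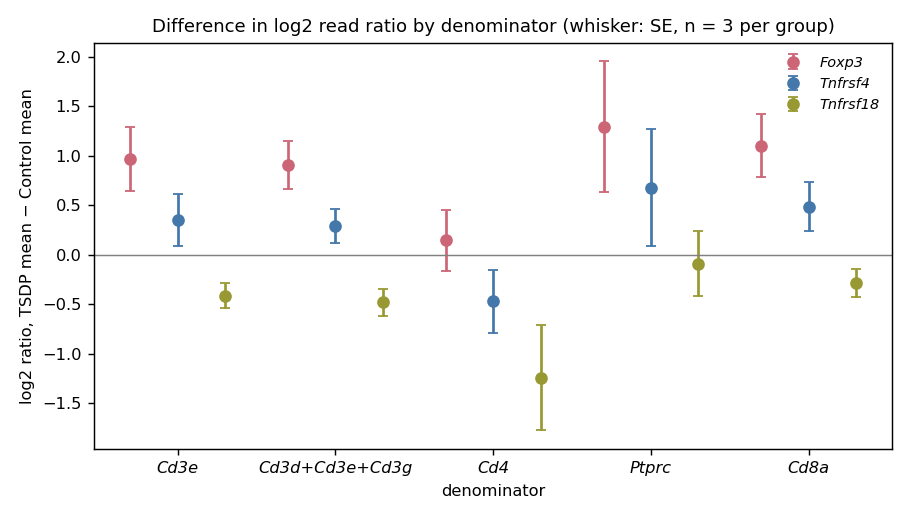
Difference in mean log2 read ratio, TSDP minus Control (vertical axis), of Foxp3, Tnfrsf4 and Tnfrsf18 against 5 denominators (horizontal axis), with SE (whisker, n = 3 per group). Foxp3 lies between 0.91 and 1.30 for 4 denominators and stands at 0.14 for Cd4, and Tnfrsf18 is below 0 for all 5, with groups that overlap for Cd4, Ptprc (-0.09) and Cd8a.

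The molecules that the members bind were higher on average in TSDP but overlapped in most cases. Of 8 listed ligands and receptor partners 7 were tested, all with positive log2 fold changes (median 0.38), and 0 passed in either direction. Of the 7, 1 was higher in TSDP without overlap and 0 lower, against 13% and 8.76% of all tested genes, so the share was near that of all genes. It was Il2rg, the shared chain of the interleukin 2 receptor, at 8.70, 16.5 and 12.7 CPM in Control 3, 4 and 5 against 17.2, 21.4 and 17.2 CPM in TSDP 1, 2 and 5 (edgeR adjusted p = 0.397). Il2rb, its signalling partner, averaged a log2 fold change of 0.31 ± 0.38 (SE), and Il2, the cytokine itself, was not tested, at 0.0989 to 0.250 CPM. Tnfsf18, the GITR ligand, reached 6.24 CPM in TSDP 2 against 0.492 to 2.38 CPM in every other library. Tnfsf4, the OX40 ligand, and Icosl, the ICOS ligand, had log2 fold changes of 0.42 ± 0.55 and 0.38 ± 0.25 (SE). For the interleukin 10 receptor chains Il10ra and Il10rb these were 0.28 ± 0.25 and 0.09 ± 0.14 (SE).

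Other genes of regulatory T cells gave a mixed picture. Of 18 listed genes for surface proteins, suppressive products and markers, 16 were tested, 11 positive and 5 negative (median 0.42), 0 were called, and 4 were higher in TSDP and 0 lower without overlap, against 13% and 8.76% of all genes. Those with the smallest p were Izumo1r, the folate receptor 4 gene of regulatory T cells, at 0.399 CPM ± 0.229 in Control against 0.809 CPM ± 0.117 in TSDP, and Ebi3, a subunit of interleukin 35, at 1.43 CPM ± 0.399 and 2.13 CPM ± 0.0419 (SD, n = 3 each). Their edgeR adjusted p were 0.399 and 0.434. Ctla4, the inhibitory receptor of these cells, chosen after its values were seen, had 1.84, 7.32 and 6.40 CPM in Control 3, 4 and 5 against 9.94, 12.6 and 7.85 CPM in TSDP 1, 2 and 5, without overlap (edgeR adjusted p = 0.445). Gpr83 and Il12a were too low to test. All 18 listed transcription factors of regulatory and helper T cells were tested, 12 positive and 6 negative (median 0.27), with 0 called. Without overlap, 5 were higher and 2 lower in TSDP, against 13% and 8.76% of all genes. The 2 lower, chosen after their values were seen, were Foxo3, a forkhead factor, at 59.9 CPM ± 3.26 in Control against 47.6 CPM ± 7.15 in TSDP, and Nfatc1, an NFAT factor, at 207.7 CPM ± 22.7 and 155.9 CPM ± 36.2 (SD of 3 libraries each). By edgeR their adjusted p were 0.372 and 0.421. Prdm1, which encodes Blimp-1, a factor of effector regulatory T cells, stood at 11.2 CPM ± 1.51 in Control against 14.7 CPM ± 0.836 in TSDP (SD, n = 3 each). Satb1, a chromatin organiser of T cells, stood at 1.38 CPM ± 0.346 and 2.51 CPM ± 0.800 in the same order. Their edgeR adjusted p were 0.369 and 0.371.

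Among 11 chemokines and receptors that guide these cells 7 were tested, 6 positive and 1 negative (median 0.89), with 0 called. Of the 7, 1 was higher in TSDP without overlap and 0 lower, against 13% and 8.76% of all tested genes. This was Ccr8, chosen after its values were seen. It had 0.184, 0.915 and 0.742 CPM in Control 3, 4 and 5 against 1.01, 1.06 and 1.36 CPM in TSDP 1, 2 and 5 (edgeR adjusted p = 0.500). Ccl17, a ligand of CCR4, had 0.645, 1.74 and 2.32 CPM in Control 3, 4 and 5 against 10.1, 2.07 and 3.55 CPM in TSDP 1, 2 and 5, so TSDP 1 set its mean (edgeR adjusted p = 0.374). Ccl22, the other CCR4 ligand and a product of dendritic cells, had a mean of 5.81 CPM for Control ± 4.45 against 12.1 CPM ± 3.72 for TSDP (SD of 3 libraries each, adjusted p = 0.499 by edgeR). Of 8 genes tied to interleukin 10, 7 for cytokines or their subunits and Socs3 for an inhibitor of cytokine signalling, all were tested, 5 were positive and 3 negative (median 0.22), with 0 called, and Il12b and Tgfb3 had the smallest p (edgeR adjusted p = 0.637 and 0.661).

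**Figure D4:**
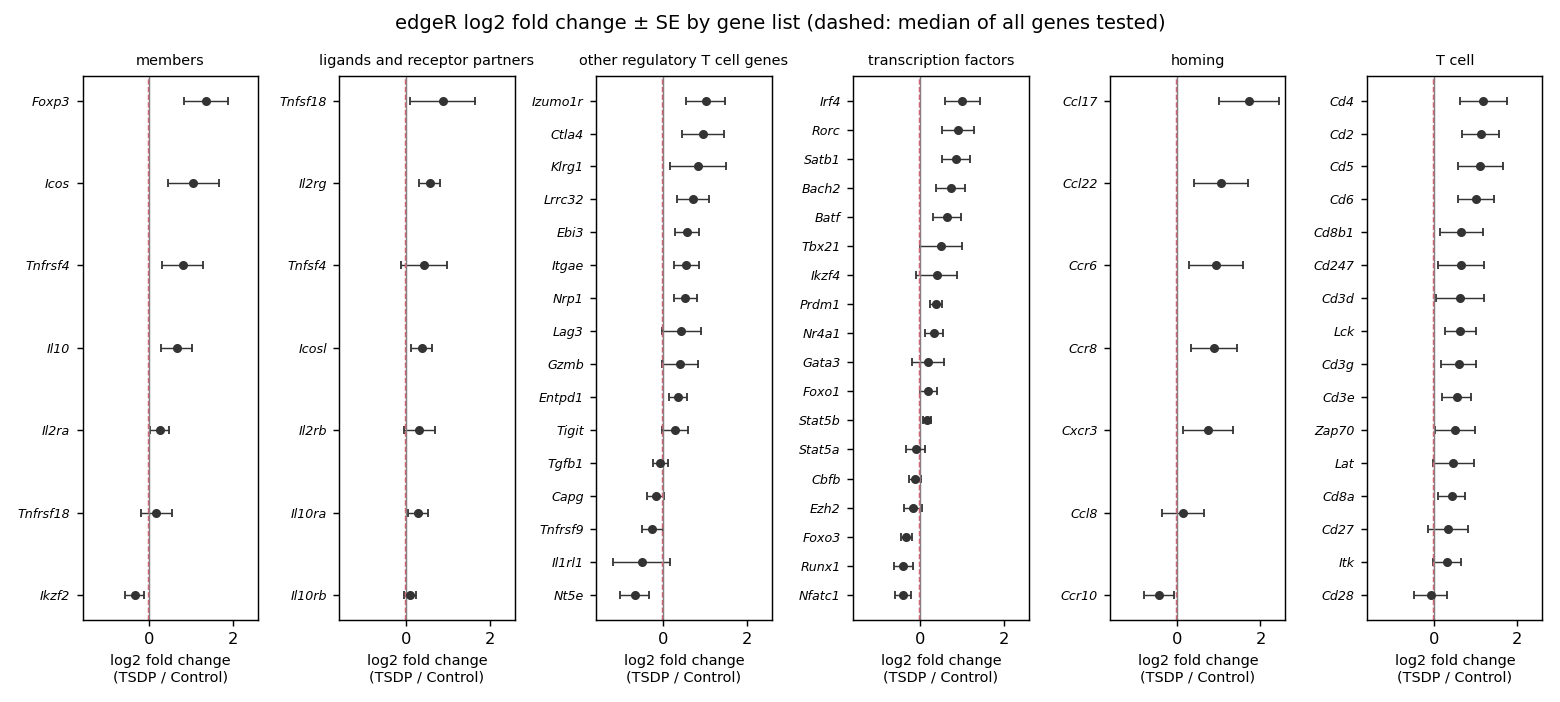
edgeR log2 fold changes (horizontal axes, TSDP over Control) with SE of the tested genes in 6 lists, with the median of all tested genes as a dashed line. Foxp3, at 1.37 ± 0.53, lies above every gene of the T cell list, but its distance to the highest, Cd4 at 1.19 ± 0.57, is within these SE. Ccl17 of the homing list lies above Foxp3, at 1.73 ± 0.72. No gene shown passed the threshold.

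Markers of T cells and of liver moved with these differences. All 16 genes of the T cell list were tested, 15 of them positive (median 0.61), and their summed level was 46.4 to 113.6 CPM in Control and 115.0 to 132.1 CPM in TSDP. Control 3 was the lowest library for these 15 and the highest for the other, Cd28, at 12.8 CPM against 5.07 to 10.2 CPM elsewhere. Cd8a, the listed gene with most reads, had a log2 fold change of 0.43 ± 0.33 (SE, adjusted p = 0.58 by edgeR). Of the 16 T cell genes, 4 were higher in TSDP without overlap and 0 lower, against 13% and 8.76% of all tested genes. These were Cd2, Cd4, Cd5 and Cd6, named after their values were seen. Separation in CPM was thus not particular to the regulatory T cell genes. The 5 hepatocyte genes, with Alb foremost, were all positive (median 2.33). Their summed level was 75.1, 13099.8 and 2689 CPM in Control 3, 4 and 5 against 22842, 43106 and 14519.8 CPM in TSDP 1, 2 and 5. That sum was thus higher in each of the 3 TSDP libraries, higher in Foxp3, than in any Control library. Of the 5 genes, 3 were higher in TSDP without overlap and 0 lower, against 13% and 8.76% of all tested genes. Apoa1 and Serpina1a overlapped, with Control 4 (1501 and 291.3 CPM) above TSDP 5 (1376 and 290.3 CPM). With the hepatocyte level of each library as a covariate the log2 fold change was 0.37 for Foxp3 (edgeR adjusted p = 0.929), -0.13 for Icos, -0.15 for Tnfrsf4 and -0.50 for Tnfrsf18 (edgeR adjusted p = 0.984, 0.977 and 0.889). That covariate, the mean log2 CPM of the 5 genes, itself parted the groups. It was 2.36, 10.0 and 7.93 in Control 3, 4 and 5 against 11.0, 12.0 and 10.3 in TSDP 1, 2 and 5. This fit therefore cannot tell the group from the hepatocyte level. With the summed level of Cd3d, Cd3e and Cd3g as the covariate Foxp3 stood at 0.67 (edgeR adjusted p = 0.651).

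Other cells that can express members were present in both groups. Of the 4 B cell genes 4 were positive (median 1.75), with a summed level of 0.676 to 1.19 CPM in Control against 2.32 to 5.49 CPM in TSDP, and Cd79a was the most counted. Summed macrophage genes, 3 of 4 positive, had 410 to 809 CPM in Control against 632 to 864 CPM in TSDP, led by C1qa. Migratory dendritic cell genes, 4 of 4 positive and led by Fscn1, had 25.04 to 43.6 CPM and 47.2 to 57.0 CPM. Natural killer cell genes, of which 3 of 4 were tested and led by Eomes, had 2.77 to 8.82 CPM and 6.30 to 10.5 CPM. In the list of type 2 innate lymphoid cells, led by Areg, 3 of 5 genes were tested and Il13 was at 0 in Control 3, Control 4 and TSDP 5. The plasma cell list was led by Sdc1, which tumour cells share, with a log2 fold change of -0.01 ± 0.26 (SE). Jchain of that list, the joining chain of secreted antibodies, chosen after its values were seen, had 0.553, 2.90 and 4.33 CPM in Control 3, 4 and 5 against 10.7, 56.7 and 39.02 CPM in TSDP 1, 2 and 5, without overlap (edgeR adjusted p = 0.326). The part of these cells in the members' values was not tested. For the tumour label, Krt18 and Krt8 were abundant in all libraries (429 to 721 CPM), while Afp and Gpc3, usual markers of hepatocellular carcinoma, lay between 0.676 and 9.15 CPM.

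The likeness rule passes over predicted genes and those without a symbol among the 17422 others tested, and some of these may lie closer. By this rule, the 4 genes closest to Foxp3 in log2 CPM over the 6 libraries were Cyp2a5, Hpgd, Ltb and Ugt2b5, with Pearson r from 0.994 to 0.996. Spearman's rho was 1 for Cyp2a5 and 0.943 for the other 3, and without Control 3 and TSDP 2, the libraries farthest from the median Foxp3 level, r was 0.973 to 0.986. Ltb encodes lymphotoxin beta, a lymphocyte cytokine, and Cyp2a5 and Ugt2b5 encode liver enzymes. Both groups entered each r, and with 6 libraries and so many candidate genes such values describe the libraries alone. Reads of Cyp2a5 and Ugt2b5 can be shared with close relatives in their families.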

How the data were processed

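Per the labels' protocols, tumour RNA came from the RNeasy kit and libraries from the KAPA mRNA HyperPrep kit. HISAT2 2.1.0, featureCounts 2.0.0 and Trimmomatic 0.38 are named in the submitters' processing notes, beside FastQC, MultiQC and CASAVA. The build, annotation and strandedness of the counting are not stated in the sources used here. All 55450 genes of GENCODE M21 were in the count table, and M21 served only for exon lengths and overlaps.

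The deposited count table holds whole reads per gene, not normalized. The deposited normalized signal equals the count over 1 constant per library (largest relative departure 5.3e-15) and served only for symbols. It gives none for 1137 genes.

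Groups came from the titles. Nothing in the labels says that the tumours of a group came from separate batches or litters, so the p-values reflect only the spread among these samples, which may be technical. No 2 libraries agreed within counting noise (smallest chi-square per gene 47.7).

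Genes were tested with edgeR 4.0.16 in R 4.3.3 (TMM, filterByExpr at a minimum count of 10, glmQLFit in legacy mode, Benjamini-Hochberg over 17423 genes at 0.05). The standard error is the absolute log2 fold change over the root of F. CPM uses TMM-scaled library sizes, and log2 CPM a prior count of 2. Alternatives used DESeq2 1.42.0, limma-voom 3.58.1, other scaling, filters, covariates and denominators, and each library left out. The fits were tested on simulated data.

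Ratios divide raw counts within a library and were compared on the log2 scale by an exact two-sided permutation test. Members, lists and tests were chosen with earlier results of these data known. Text names all members and Cd3e, every listed ligand or receptor partner, the 2 genes with the smallest p in each pathway list, the marker with most reads in each cell type list, and, of the 5 genes most like Foxp3, the first 4, as the other is not reported here. For likeness, predicted genes and those without a symbol were left out. Promoter stretches that overlap an exon of their own gene were not printed.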

Additional observations from a re-analysis of the deposited data

How the results depend on the processing

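The 7 members were called in neither direction under any of the 15 other settings. Over all genes, edgeR without a filter called 1 gene higher, DESeq2 547 higher and 73 lower, and edgeR with the Cd3 level as covariate 92 higher and 3 lower. Tnfrsf18 turned to -0.32 with the Cd3 level, to -0.50 with the hepatocyte level and to -0.12 without Control 3 (-0.12 to 0.48 with each library left out), and with the hepatocyte level Tnfrsf4 turned to -0.15 and Icos to -0.13. The other 99 of 104 fold changes kept their sign. Over the alternatives Foxp3 lay between 0.37 and 1.65, with adjusted p from 0.131 (DESeq2) to 0.929. Among ratios, those to Cd4 turned to -0.47 for Tnfrsf4, -0.053 for Icos and -0.81 for Il10. The Il10 difference, 0.01 per Cd3e read, was -0.052 against the 3 Cd3 genes and ranged from -0.28 to 0.37 with each library left out. The cause of these turns was not tested. With each library left out, members higher without overlap numbered 3 to 4 in CPM and 1 to 3 per Cd3e read (3 without Control 5), and members lower 0 to 1 in CPM (1, Ikzf2, without Control 5) and 2 to 3 per Cd3e read (3, with Il2ra, without Control 4). Over all genes the shares in these settings were 14.9% to 22.9% higher and 11.4% to 19.2% lower in CPM, and 4.97% to 8.05% higher and 17.7% to 66.1% lower per Cd3e read, the 66.1% without Control 4. Those counts and the ratio to Cd8a were added after seeing the data. Il10 was not tested at a minimum count of 30. No paired analysis was possible because the groups share 1 replicate number. Depth limits Il10, at 9 to 21 reads, most.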

Other observations

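Il1rl1, the interleukin 33 receptor of tissue regulatory T cells, did not follow Foxp3. It had 2.46, 3.75 and 14.3 CPM in Control 3, 4 and 5 and 3.76, 3.74 and 6.88 CPM in TSDP 1, 2 and 5, with Control 5 and TSDP 5 highest. Mast cells carry this receptor too. Their protease genes Cpa3 and Mcpt4 were also highest in Control 5 (30.7 and 29.1 CPM) and TSDP 5 (24.0 and 22.5 CPM), and lowest in Control 3 (2.37 and 1.598 CPM). The part of mast cells in the Il1rl1 values was not tested.

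Nt5e, which encodes CD73, an enzyme that makes adenosine on regulatory T cells and other cells, had 67.6, 34.0 and 75.6 CPM in Control 3, 4 and 5 and 48.0, 35.3 and 26.8 CPM in TSDP 1, 2 and 5, with overlap and a log2 fold change of -0.69 ± 0.35 (SE, adjusted p = 0.435 by edgeR). Its partner Entpd1, which encodes CD39, had the opposite sign at 0.36 ± 0.21 (SE, adjusted p = 0.489 by edgeR). Both genes were chosen after their values were seen.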
